A study of Mus musculus with 620 samples.

Results

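The complement members described are 9 genes, C1qa, C1qb, C1qc, C1ra, C1s1, C4b, C3, Cfb and Serping1, taken by symbol from the 3 deposited count tables. All 9 were present, among 24850 genes in the table of the cohort that the labels call LT and 40840 genes in the tables of the ST and YA cohorts. RNA of 72 mice was read in 620 tissue libraries, with 1 library per animal and tissue. The LT cohort held 12 tissues of young controls (n = 8), aged controls (n = 9) and aged animals given exenatide (n = 8), a peptide drug that activates GLP-1R, the receptor of glucagon-like peptide-1. Fewer LT animals had white blood cells (n = 5 per group), young colon or young muscle (n = 6 each) and aged-control frontal cortex or lung (n = 8 each). The YA cohort held 8 tissues of controls (n = 8) and of animals given exenatide (n = 8). The ST cohort held 7 tissues of 6 groups with n = 5 in each tissue, namely young controls (from 6 animals in all), aged controls, and aged animals given exenatide, rapamycin (an inhibitor of the mTOR kinase), hypothalamic GLP-1R knockdown, or exenatide with that knockdown. White blood cells of the ST exenatide and rapamycin groups had n = 4. Strain, sex, age, dose, length of treatment, the knockdown agent and what its controls received are not given in the sources used here. With no hypothalamus library in ST, the knockdown could not be checked where it was made.

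Complement is a chain of plasma proteins that marks surfaces for removal. In the classical pathway C1q, assembled from the chains encoded by C1qa, C1qb and C1qc, recognises a target, and the proteases C1r and C1s then cut C4 and C2. In the alternative pathway factor B, encoded by Cfb, joins with C3 fragments, and all pathways meet at C3. Serping1 encodes C1 inhibitor, which blocks C1r and C1s. Hepatocytes make most of the circulating C3, C4 and factor B, tissue macrophages and microglia make C1q, and in brain astrocytes and microglia are local sources of C3 and C4.

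Total counts per library had a lowest, median and highest of 15.2, 25.8 and 33.8 M in LT, 14.6, 24.8 and 56.2 M in ST and 15, 26.2 and 34.1 M in YA. Of 108 checks of a tissue's own marker genes, 2 had a library under 1 CPM (counts per 1 M counts of the library), Car1 in LT colon and Agrp in YA hypothalamus. Outside the liver, 6 libraries held more than 1000 CPM summed over 10 hepatocyte markers. They were the LT young hippocampus of animal A53 (12296 CPM, with Alb at 7520), the LT young colons of animals A52 (3370, with Alb at 0 and Apoa1, which intestine also makes, at 2677) and A53 (6249, with Alb at 27.6 and Apoa1 at 5296), and the adipose libraries of YA control A33 (4063), ST aged control E29 (1818) and ST aged exenatide E7 (1036). In the other LT hippocampus libraries the same sum lay between 0.641 and 1.88 CPM. In the colons of A52 and A53, 2 and 6 of the 10 markers lay above all other colons, and in the other 4 libraries all 10 did so for their tissue. Where a member's call in 1 tissue was made or ended by leaving these libraries out, both values are given. In bulk tissue, a change in the number of cells that make a transcript and a change in transcript per cell cannot be told apart.

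C4b has a near-identical copy, C4a, and the mouse genome also holds C1rb and C1s2, close relatives of C1ra and C1s1. The sources used here do not say how reads were divided between such copies, and the levels of C4b, C1ra and C1s1 are uncertain to that extent. C4a took a median of 0.0381% of the reads of both C4 genes in LT adipose tissue, 2.18% in liver, 5.2% in kidney and 15.1% in white blood cells, where single libraries reached 86.3%. With the reads of C4a and C4b summed, C4b was called in the same tissues in each of the comparisons made. The largest shift of its LT age effect was 0.255 on the log2 scale, in kidney.

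The 250 bases before the transcription start of the members held in the RefSeq promoter table (mouse build GRCm38.p6, 5 of 9 members matched) are shown because the C1q chains, and C1ra with C1s1, were the members whose levels ran most closely together. They are C1qb at chr4:136886201-136886450 (minus strand), C1qc at chr4:136892915-136893164 (minus), C1ra at chr6:124512371-124512620 (plus), C1s1 at chr6:124542360-124542609 (minus, the first of 2 entries) and C3 at chr17:57228137-57228386 (minus). Each is written 5′ to 3′ in the direction of the gene, and capitals mark a match, on either strand, to one of 4 motifs that were searched.
C1qb: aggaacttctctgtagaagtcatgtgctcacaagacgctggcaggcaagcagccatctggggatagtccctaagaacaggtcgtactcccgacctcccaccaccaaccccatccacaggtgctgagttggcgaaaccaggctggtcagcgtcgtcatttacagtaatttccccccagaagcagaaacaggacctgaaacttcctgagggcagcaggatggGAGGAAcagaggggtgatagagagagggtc
C1qc: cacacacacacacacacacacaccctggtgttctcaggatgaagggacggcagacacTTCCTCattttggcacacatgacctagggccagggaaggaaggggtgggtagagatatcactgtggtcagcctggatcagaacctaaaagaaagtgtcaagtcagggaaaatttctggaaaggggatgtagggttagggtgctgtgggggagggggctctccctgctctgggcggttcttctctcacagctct
C1ra: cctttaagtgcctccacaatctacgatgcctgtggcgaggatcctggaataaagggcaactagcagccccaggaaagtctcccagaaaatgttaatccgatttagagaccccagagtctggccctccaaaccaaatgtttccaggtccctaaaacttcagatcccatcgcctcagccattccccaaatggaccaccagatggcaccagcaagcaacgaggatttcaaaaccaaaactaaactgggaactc
C1s1: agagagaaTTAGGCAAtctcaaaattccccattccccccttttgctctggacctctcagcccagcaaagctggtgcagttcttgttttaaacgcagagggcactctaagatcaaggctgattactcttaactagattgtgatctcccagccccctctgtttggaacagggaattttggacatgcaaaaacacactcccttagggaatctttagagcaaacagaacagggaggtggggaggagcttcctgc
C3: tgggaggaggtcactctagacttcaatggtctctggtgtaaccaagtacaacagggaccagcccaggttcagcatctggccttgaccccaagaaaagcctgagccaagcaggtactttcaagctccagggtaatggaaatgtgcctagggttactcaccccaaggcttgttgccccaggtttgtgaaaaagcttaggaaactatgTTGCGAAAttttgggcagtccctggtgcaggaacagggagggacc
The motif GAGGAA, the core that PU.1 recognises, a regulator of macrophage genes, matched C1qb between 30 and 25 bases before the start, and C1qc, on the opposite strand, between 193 and 188 bases before it. It was held by 23.3% of 32851 promoter windows of the same length. TTGCNNAA, a form of the C/EBP motif, matched C3 between 45 and 38 bases and C1s1, on the opposite strand, between 242 and 235 bases before the start, against 9.56% of windows. TTCNNNGAA, a STAT motif (7.02% of windows), and GAAA repeated after a gap of 2 bases, an interferon response motif (2.98%), matched 0 of the 5, so these letters are not in these windows. C4b, C1qa, Cfb and Serping1 are named only.

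In young LT controls the members' highest levels were in liver, adipose tissue or spleen. C3, C4b, C1s1, C1ra, Cfb and Serping1 were highest in liver or adipose tissue, and the C1q chains were highest in spleen or adipose tissue. C3 had the highest level of all, with a liver median of 7140 CPM (1390 CPM per kilobase of transcript), followed by adipose tissue at 1979, spleen at 969 and lung at 956 CPM. Its liver level was above its adipose level in each of 8 animals (mean log2 difference 1.54, two-sided exact sign-flip permutation p = 0.00781, adjusted p = 0.0352, the smallest that 8 animals allow), whereas spleen and lung did not differ past the threshold. C3 was lowest in brain, at 4.75 CPM in hypothalamus, 1.46 in hippocampus and 0.459 in frontal cortex.

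C4b did not share this order in brain. Its medians were 1793 CPM in adipose tissue and 1770 in liver, a pair that did not differ past the threshold (adjusted p = 0.352), then 324 in lung, 297 in spleen, 76.2 in colon, 62.6 in hypothalamus, 45.3 in hippocampus and 31 in frontal cortex. Heart (26), skeletal muscle (14.2), kidney (10.4) and white blood cells (6.75) came last. Per kilobase, frontal cortex held 5.75 CPM of C4b and 0.0894 of C3, while liver held 329 of C4b and 1390 of C3. Cfb had a liver median of 1240 CPM, and kidney, at 465, came next, with adipose tissue at 451. Factor B transcript was near the detection floor in brain, at 0.73 CPM in hypothalamus, 0.257 in hippocampus and 0.248 in frontal cortex.

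The proteases and their inhibitor were high in the same organs. C1s1 had medians of 506 CPM in adipose tissue, 503 in liver and 169 in lung, and was at 0 in the median white blood cell library. C1ra had 310 in liver, 166 in adipose tissue and 82.2 in lung, and Serping1 had 927, 715 and 555. All of these fell to low levels in brain, between 0.458 CPM (C1ra, hypothalamus) and 8.4 (Serping1, frontal cortex). The C1q chains had a flatter order. C1qa had medians of 173 CPM in adipose tissue and 140 in spleen, then 55.3 in liver, 39.6 in heart, 34.3 in frontal cortex and 25.1 in hippocampus, down to 9.94 in kidney, 5.23 in skeletal muscle and 1.97 in white blood cells. Of the 99 pairs of neighbours in the members' tissue orders, 22 differed past the threshold (adjusted over the 99). Pairs with white blood cells, at 5 animals, could not pass, since their smallest possible p is 0.0625. For pairs with young colon or skeletal muscle, at no more than 6 animals, the smallest possible p was also too large to pass after adjustment. Such pairs are not shown to be alike. In aged LT controls, adipose tissue was the highest tissue for 8 of the 9 members, and Cfb remained highest in liver.

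**Figure D1:**
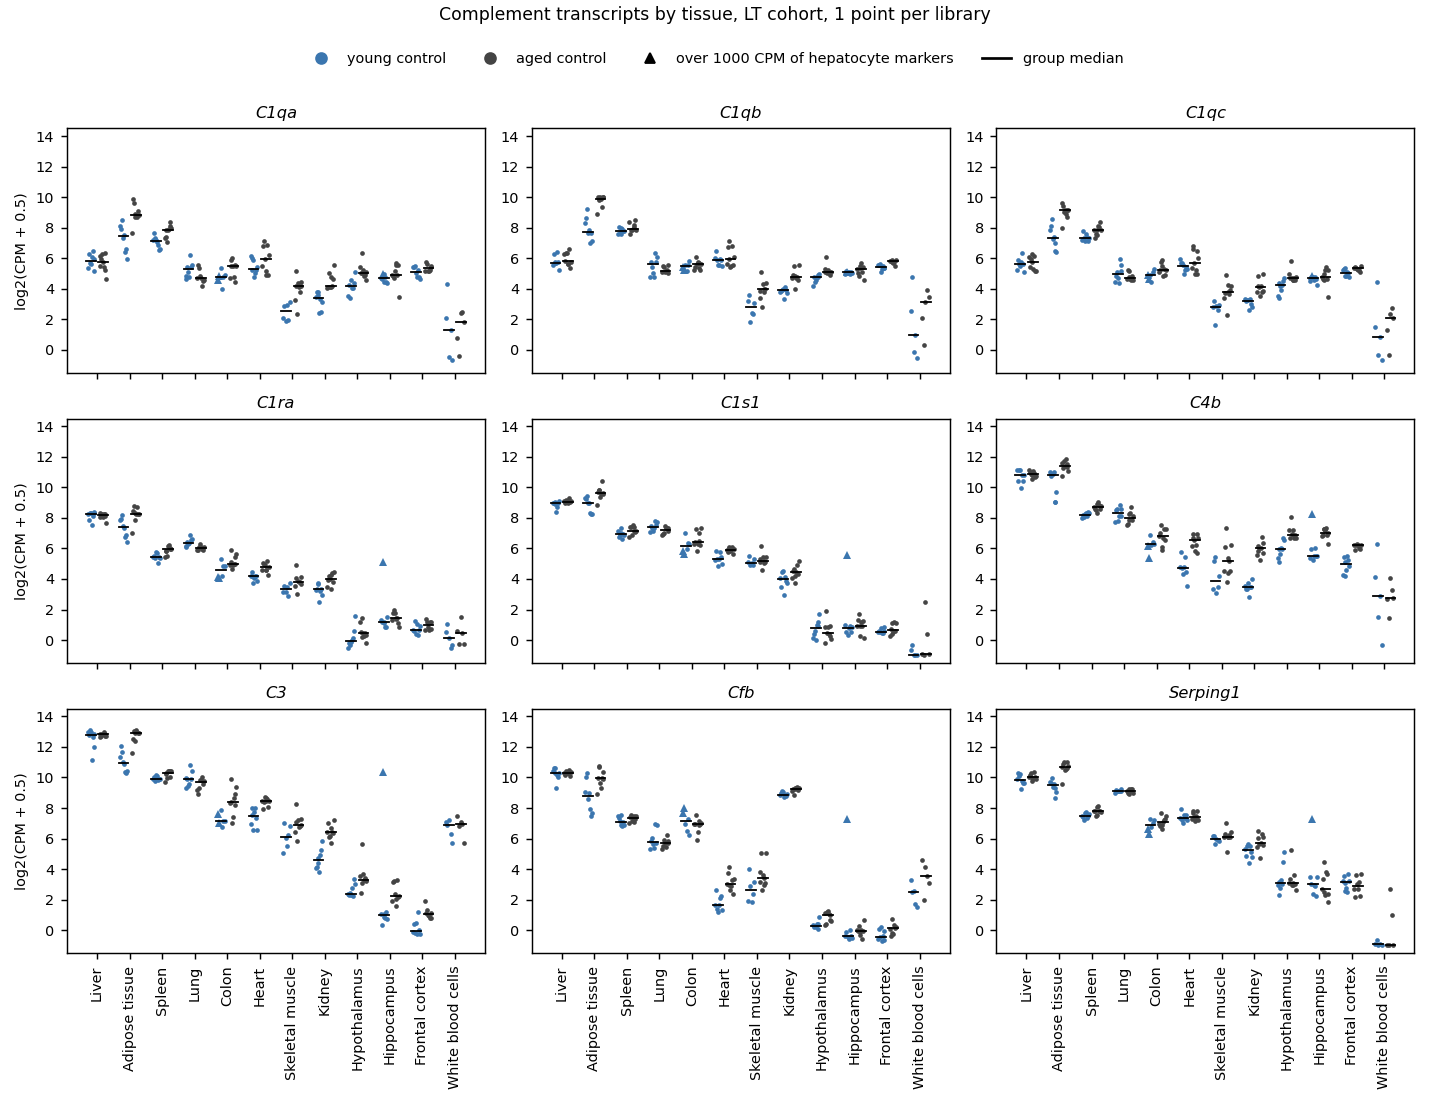
Level of each of the 9 members, as log2(CPM + 0.5), in the 12 tissues of LT young and aged controls, with 1 point per library, a line for the group median and triangles for libraries over 1000 CPM of hepatocyte markers. In young controls C3 runs from a median of 7140 CPM in liver to 0.459 in frontal cortex, and Cfb has a second high level in kidney, at 465.

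In LT, the ratio of C1qc to C1qa varied less than that of C1qb to C1qa. Over the 12 LT tissues, the mean log2 ratio of C1qc to C1qa lay between -0.34 (kidney) and 0.21 (spleen), and that of C1qb to C1qa between 0.04 (skeletal muscle) and 1.03 (white blood cells), where counts were lowest. Within a tissue the SD of the second ratio lay between 0.28 and 0.69, and that of the first between 0.21 and 0.40. The third ratio, C1qc to C1qb, had means between -0.94 and -0.17 and a median SD of 0.22, against 0.30 for C1qc to C1qa. In ST the order within tissues was the reverse, with a median SD of 0.24 for C1qb to C1qa and 0.32 for C1qc to C1qa. In YA these were 0.24 and 0.21. Over the 24 means of 12 tissues in young and aged LT controls, the genes most like C1qa among 15554 compared were C1qc (Pearson r = 0.996), C1qb (0.988) and Vcam1 (0.896). C1qb was most like C1qc (0.993), C1qa and Il18bp (0.897), and C1qc most like C1qa, C1qb and Vcam1 (0.899). C1s1 was most like C1ra (0.987), Serping1 (0.970) and Nr1h3 (0.933), C1ra like C1s1, Serping1 (0.955) and Nr1h3 (0.931), and Serping1 like C1s1, C1ra and C1qtnf1 (0.952). C4b was most like Serpina3n (0.905), an acute-phase protease inhibitor that reactive astrocytes also make, C6 (0.870) and Igf1 (0.854). C3 was most like Bst2 (0.963), Iigp1 (0.947) and Ifitm3 (0.940), which are interferon-induced genes, and Cfb like Parp16 (0.917), Dera (0.916) and Tgds (0.915). These are descriptions over means that share animals and libraries, and the 3 nearest genes of C4b, C1s1, C1ra and Cfb changed when the libraries with over 1000 CPM of hepatocyte markers were left out. For Cfb the nearest gene changed too, with Parp16 no longer among the 3, which were then Dera (0.921), Tgds (0.916) and Mthfs (0.913). For C4b, C1s1 and C1ra only the third gene changed, to Agmo, Pon3 and Iigp1.

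Between young and aged LT controls, complement transcripts were mostly higher with age. Of 106 member-by-tissue tests, 41 rose and 1 fell (edgeR quasi-likelihood test, called at a Benjamini-Hochberg adjusted p under 0.05 within tissue), and the members' median log2 fold change was 0.381. Over all genes and tissues, 7.01% of tests rose and 6.56% fell, and the median of all genes was close to 0 in every tissue. Adipose tissue held rises of all 9 members, kidney of 7, heart and hypothalamus of 5, colon and skeletal muscle of 4, frontal cortex and spleen of 3 and white blood cells of 1. Of all genes, 26.1% rose in adipose tissue, 4.72% in kidney, 8.06% in heart, 3.12% in hypothalamus, 6.01% in colon, 5.51% in skeletal muscle, 2.94% in frontal cortex, 6.94% in spleen and 15.7% in white blood cells. In liver, the main source of the circulating proteins, none of the 9 passed in edgeR or DESeq2, 0 had an unadjusted p under 0.05, and the log2 fold changes lay between -0.20 and 0.11. In lung, where 1 member fell and 2.79% of all genes did, the median of the members was -0.273. Leaving out any 1 animal kept 29 of the 42 calls, and the other 13 are described after the members.

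**Figure D2:**
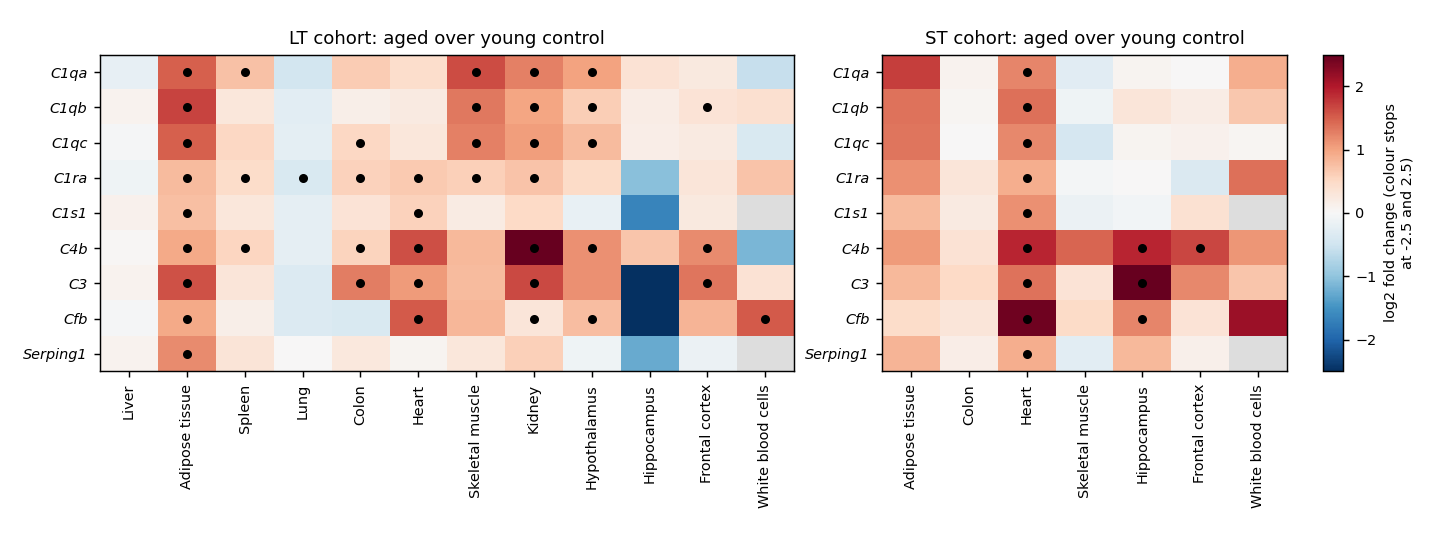
Log2 fold change of aged against young controls for the 9 members (rows) in the LT and ST tissues (columns), where red is higher in aged, a dot marks a called value, grey was not tested and the colour stops at 2.5 in either direction. Dots fill the LT adipose tissue and ST heart columns, the LT liver column is near 0, and the blue cells of LT hippocampus include the young library with hepatocyte transcripts.

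Among the recognition chains, the C1q genes rose with age in adipose tissue, skeletal muscle, kidney and hypothalamus. In adipose tissue C1qb had a lowest, median and highest CPM of 128, 214 and 607 in young and 485, 959 and 1052 in aged controls (log2 fold change 1.68 ± 0.32 SE, adjusted p = 0.000239, 8 of 9 aged animals above all young). C1qa (1.49 ± 0.34, adjusted p = 0.00128) and C1qc (1.49 ± 0.31, adjusted p = 0.000542) moved by about the same amount. C1qb and C1qc had their largest LT age effects there, and the aged median of each chain exceeded its highest young value.

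In skeletal muscle C1qa had 3.14, 5.23 and 8.14 CPM in young and 4.53, 17.4 and 35.6 in aged controls (1.64 ± 0.33, adjusted p = 0.0045). C1qb (1.32 ± 0.33, adjusted p = 0.0155) and C1qc (1.26 ± 0.30, adjusted p = 0.0114) rose as well, from levels that were the lowest of the solid tissues. In kidney, C1qa had 4.97, 9.94 and 13.4 CPM in young and 16.1, 17.7 and 46.6 in aged controls, and the groups did not overlap (1.25 ± 0.23, adjusted p = 0.000875). C1qb (0.98 ± 0.20, adjusted p = 0.00195) and C1qc (1.04 ± 0.21, adjusted p = 0.00251) rose with it. C1qa also rose in hypothalamus (1.01 ± 0.24, adjusted p = 0.016), from 10.3, 17.5 and 33.2 to 23.7, 32.4 and 80 CPM, where aged animal B19 held the highest value. In frontal cortex C1qb rose by a smaller step, from 34.1, 42.1 and 48.7 to 44.5, 54.9 and 59.5 CPM (0.33 ± 0.09, adjusted p = 0.0207).

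Macrophage and microglia markers moved in some of the same tissues. Of 14 such markers, 12 rose with age in LT adipose tissue, 13 in kidney, 4 in hypothalamus and 2 in heart. Their summed level went from 1454, 1988 and 6824 CPM (lowest, median, highest) in young to 5254, 9822 and 17285 in aged adipose tissue, and from 120, 156 and 200 to 163, 270 and 485 in kidney. In spleen, where the sum hardly moved (5318, 5547 and 6030 in young, 5134, 5701 and 5903 in aged), 0 markers rose and 1 fell. In kidney the summed hepatocyte markers also went from 50.3, 91.6 and 110 to 129, 141 and 212 CPM, with 2 of 6 tested markers rising. The log2 ratio of summed C1q to the summed markers was higher in aged controls in spleen (by 0.474), colon (0.396) and hypothalamus (0.378), each at an adjusted p of 0.0212 by a two-sided exact permutation test within batches over 12 tissues. In the remaining 9 tissues it did not pass, with -0.28 in adipose tissue (adjusted p = 0.19), 0.226 in kidney (0.108) and 0.503 in skeletal muscle (0.061). Without the young colons of A52 and A53 the colon no longer passed (0.347, adjusted p = 0.0714), which left 2 tissues. With Lyz2 and Ctss taken off the marker list 6 tissues passed, and with no batches in the permutation 4 did, skeletal muscle being added (0.540, adjusted p = 0.03). Adipose tissue and kidney also gained other immune transcripts, with 7 of 7 and 5 of 7 B and plasma cell markers and 7 of 7 and 6 of 7 T and NK cell markers rising, and in adipose tissue 5 of 6 lymph node markers (summed level 10.5, 85.2 and 152 CPM in young, 183, 504 and 1126 in aged). Their part in the members' rises was not tested.

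The C1r and C1s proteases rose less. In adipose tissue C1s1 had 300, 506 and 698 CPM in young and 462, 798 and 1387 in aged controls (0.75 ± 0.19, adjusted p = 0.00284), and C1ra had 83.4, 166 and 286 and 131, 311 and 429 (0.80 ± 0.20, adjusted p = 0.00287). In heart C1s1 went from 28, 39 and 57.1 to 48.2, 59.4 and 68.8 CPM (0.57 ± 0.11, adjusted p = 0.0014), and C1ra from 13.1, 17.6 and 21 to 19, 27.1 and 36.2 (0.66 ± 0.12, adjusted p = 0.000763). For C1ra, 8 of 9 aged hearts lay above all young hearts, and for C1s1, 6 of 9.

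C4b, which encodes the fourth component cut by C1s, was called in 7 of 12 tissues, more than any other member in one direction. The largest step was in kidney, where young controls had 6.68, 10.4 and 15.2 CPM and aged controls 36.6, 64.6 and 105, so that the groups stood apart (log2 fold change 2.49 ± 0.25, or 5.62-fold, adjusted p = 7.55e-07). In heart it went from 10.9, 26 and 53.5 to 52.4, 91.3 and 123 CPM (1.61 ± 0.28, adjusted p = 0.00058, 8 of 9 aged above all young). In the brain, frontal cortex held 17.5, 31 and 45 CPM in young and 59.1, 73.4 and 76.3 in aged controls, again without overlap (1.19 ± 0.19, adjusted p = 0.000635). Hypothalamus had 33.4, 62.6 and 104 against 102, 118 and 269 CPM (1.14 ± 0.22, adjusted p = 0.0044), with the highest value again in animal B19.

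Tissues that already held much C4b transcript showed smaller steps. In adipose tissue it had 517, 1793 and 2098 CPM in young and 1741, 2697 and 3660 in aged controls (0.94 ± 0.27, adjusted p = 0.00652), and in spleen 256, 297 and 329 against 326, 410 and 519 (0.54 ± 0.12, adjusted p = 0.00443). In liver it had medians of 1770 and 1839 CPM (0.03 ± 0.17, adjusted p = 0.938).

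In LT hippocampus the result for C4b turned on animal A53, the young library with hepatocyte transcripts. That library held 309 CPM of C4b, 1320 of C3, 152 of Cfb, 153 of Serping1, 47.4 of C1s1 and 34.7 of C1ra, where the highest of the other young hippocampi held 65.6, 1.74, 0.503, 10.7, 1.44 and 2.33. With it, C4b had 37.6, 45.3 and 309 CPM in young and 77.2, 131 and 160 in aged controls and did not pass (0.70, adjusted p = 0.731), and 0.324% of all hippocampal genes rose. Without it, C4b rose by 1.53 ± 0.25 (adjusted p = 0.00261). C3 changed from -3.55 with the library to 1.99 ± 0.60 without it and passed in neither fit (adjusted p = 0.637 and 0.232), and the signs of Cfb, C1s1, C1ra and Serping1 also turned from negative to positive.

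**Figure D3:**
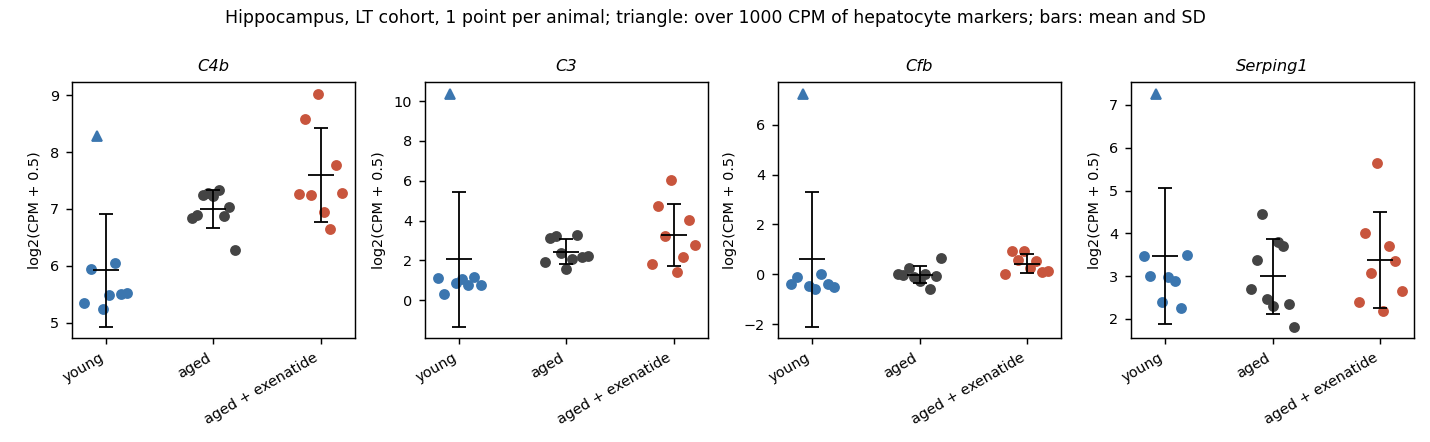
Level of C4b, C3, Cfb and Serping1, as log2(CPM + 0.5), in each LT hippocampus library by group, with bars for the mean and SD and a triangle for the young library of animal A53. That library, at 309 CPM of C4b and 1320 of C3, lies far above the other young libraries for all 4 genes.

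C3, on which all pathways meet, rose with age in kidney, adipose tissue, frontal cortex, colon and heart. In kidney young controls held 13.5, 23.2 and 56.2 CPM and aged controls 51, 84.5 and 150 (1.65 ± 0.36, adjusted p = 0.00419). In adipose tissue it went from 1279, 1979 and 4236 to 3113, 7801 and 8676 CPM (1.59 ± 0.24, or 3.01-fold, adjusted p = 3.7e-05), which brought the aged adipose median above the liver median of 7233. In heart it went from 92.5, 177 and 260 to 248, 351 and 427 CPM (1.06 ± 0.19, adjusted p = 0.00061), with 8 of 9 aged hearts above all young.

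In colon C3 had 106, 141 and 229 CPM in young and 131, 337 and 958 in aged controls (1.27 ± 0.31, adjusted p = 0.0104). Without the young colons of animals A52 and A53 it still rose (1.36, adjusted p = 0.0341). In frontal cortex the rise was from 0.326, 0.459 and 1.83 to 1.26, 1.57 and 3.33 CPM (1.33 ± 0.29, adjusted p = 0.00716), at levels where only 2 of 8 aged animals lay above all young.

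Factor B rose in heart and kidney among the tissues where no single animal decided the call. In heart Cfb went from 1.77, 2.65 and 5.74 to 4.61, 7.61 and 17.5 CPM (1.53 ± 0.30, adjusted p = 0.0012), 7 of 9 aged hearts lying above all young. In kidney, where Cfb is abundant, the step was small, from 413, 465 and 542 to 463, 612 and 655 CPM (0.29 ± 0.08, adjusted p = 0.0142). Serping1 passed in 1 tissue, adipose, with 401, 715 and 979 CPM in young and 751, 1651 and 2055 in aged controls (1.17 ± 0.21, adjusted p = 0.000169, 8 of 9 above all young). In fits limited to the 2 groups compared it also passed in kidney (0.57, adjusted p = 0.0114) and spleen (0.33, adjusted p = 0.0137).

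The other 13 LT age calls were lost when particular single animals were left out. C1ra in kidney (0.72 ± 0.20, adjusted p = 0.0251) was lost without A51 (adjusted p = 0.0577), A55 (0.053) or B34 (0.052). C1qb in hypothalamus (0.62 ± 0.15, adjusted p = 0.0182) was lost without A51 or A53 (0.0513 each), C1qc in hypothalamus (0.78 ± 0.20, adjusted p = 0.0234) without A51 (0.0605), A53 (0.071) or A55 (0.0528), and Cfb in hypothalamus (0.78 ± 0.20, adjusted p = 0.0246) without A52 (0.053), A55 (0.0593) or A56 (0.0584). C1ra in colon (0.57 ± 0.17, adjusted p = 0.0298) was lost without A52 (0.0748), A53 (0.101), A55 (0.0591) or B19 (0.0507), and without both A52 and A53 it was at 0.39 (adjusted p = 0.203). C1ra in spleen (0.46 ± 0.13, adjusted p = 0.0282) kept its call in 19 of 25 such fits, the exceptions being A51, A53, A57, B27, B34 and B39 (0.0514 to 0.0663). Cfb in adipose tissue (0.94 ± 0.35, adjusted p = 0.0303) kept it in 18 of 25, the exceptions being A51, A54, A56, A57, A58, B19 and B24 (0.0531 to 0.0804).

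The weakest of these calls depended on many animals. Cfb in white blood cells had young values of 9.37, 5.21, 5.42, 2.84 and 2.33 CPM and aged values of 23.8, 3.5, 17.5, 11.2 and 7.97 (1.53 ± 0.53, adjusted p = 0.0437), and the call was kept in 7 of 15 fits that left out 1 animal, with adjusted p up to 0.104. C4b in colon (0.56 ± 0.18, adjusted p = 0.0415) kept it in 11 of 23 fits (up to 0.132) and C1qc in colon (0.52 ± 0.17, adjusted p = 0.0422) in 12 of 23 (up to 0.0882), and without A52 and A53 together these were at 0.41 (adjusted p = 0.177) and 0.55 (adjusted p = 0.115). C1qa in spleen (0.73 ± 0.23, adjusted p = 0.0467) kept it in 9 of 25 (up to 0.111), and C1ra in skeletal muscle (0.59 ± 0.19, adjusted p = 0.0451) in 7 of 23 (up to 0.105). The only fall, of C1ra in lung from 66.6, 82.2 and 119 to 58.7, 64.4 and 79.5 CPM (-0.37 ± 0.11, adjusted p = 0.0377), kept it in 14 of 24 (up to 0.0884).

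LT tissues other than liver and white blood cells were sequenced in 2 sets, batch 3 and batches 1 and 2, each with all groups, and the batch was a term of the fit. Batch 3 held 2 young colons and only 1 young skeletal muscle, beside 4 aged ones of each. The muscle calls could therefore not be fitted in batch 3 alone. All 37 age calls that both sets could give had the same sign in both. These calls were picked in the joint fit of the same libraries, so like signs were favoured in advance and are not a replication. C4b in kidney was at 2.78 in batch 3 and 2.32 in batches 1 and 2, and in heart at 2.14 and 1.24. C3 in adipose tissue was at 1.49 and 1.64, and C1qb there at 1.27 and 1.97. Serping1 in adipose tissue was at 1.14 and 1.16, and Cfb in heart at 2.43 and 0.87. Batch 3 held 3 young and 4 aged kidneys. Over all tissues that a set could give, 9 member tests rose in batch 3 alone, against 24 in batches 1 and 2 alone. In kidney, C1qa, C1qc, C1ra and Cfb were not called in batch 3 alone.

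Whether an age effect differed between tissues was tested directly, per animal, against the mean of that animal's other tissues (two-sided exact permutation within the sets of animals sequenced together, adjusted over 99 tests, of which 33 passed; without the libraries over 1000 CPM of hepatocyte markers 33 also passed, with 4 tests lost and 4 gained). Given here is the tissue with the largest called effect of each member, and hippocampus for C4b. The C4b effect in kidney exceeded that in the other tissues by 1.59 on the log2 scale (adjusted p = 0.00561, 9 of 9 aged above all young), and the C3 effect in kidney by 1.032 (0.0409). In adipose tissue the excess was 1.407 for C1qb (0.00714), 1.129 for C1qc (0.0142), 1.063 for Serping1 (0.00561) and 0.595 for C1s1 (0.0452, or 0.543 and 0.0665 without the libraries over 1000 CPM of hepatocyte markers). The Cfb effect in heart stood above the rest by 1.122 (0.00714). C1qa in skeletal muscle (1.071, adjusted p = 0.0594) and C1ra in adipose tissue (0.508, adjusted p = 0.106) did not pass. The C4b effect in hippocampus was 0.096 above that in the other tissues (adjusted p = 0.915) and, without the libraries over 1000 CPM of hepatocyte markers, 0.525 (adjusted p = 0.0123).

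Exenatide in aged LT animals was compared with the same aged controls used for the age comparison. Of 106 tests, 5 rose, all in kidney, and 2 fell, both in colon, while 2.63% of all gene tests rose and 2.29% fell over the tissues. In kidney 8.25% of all genes rose. C4b, C3 and C1ra, which had risen with age in kidney, were higher still with exenatide. C4b had 36.6, 64.6 and 105 CPM in aged controls and 39.3, 118 and 193 with exenatide (0.85 ± 0.23, adjusted p = 0.0181), and 4 of 8 treated kidneys lay above all controls. C3 had 51, 84.5 and 150 against 97.6, 146 and 578 CPM (1.17 ± 0.34, adjusted p = 0.0259), and C1ra 9.44, 15.5 and 21.5 against 11.5, 24.8 and 39.5 (0.65 ± 0.19, adjusted p = 0.0294). C1s1 had 12.6, 21.2 and 36.3 against 14.9, 33.8 and 61.9 CPM (0.72 ± 0.23, adjusted p = 0.0427), and Serping1 26, 51.4 and 91.7 against 37.1, 77.4 and 169 (0.70 ± 0.24, adjusted p = 0.0499). The groups overlapped for each of these members.

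These kidney calls were sensitive to single animals and to batch. The C4b call was lost without treated animal B36 (0.74, adjusted p = 0.0508), which held 193 CPM, and the C3 call without B36 (0.76, adjusted p = 0.103), which held 578 CPM, or B14 (1.04, adjusted p = 0.0608), which held 296. C1ra was lost without B14, B15, B16, B28 or B30 (adjusted p 0.0511 to 0.0865), C1s1 was kept in 11 of 25 fits (up to 0.0907) and Serping1 in 4 of 25 (up to 0.119). C4b was at 0.78 in batch 3 and 0.89 in batches 1 and 2, and C3 at 1.42 and 0.97. C1s1 was at -0.04 and 1.11, and Serping1 at 0.03 and 1.07, so their rises were seen in batches 1 and 2 alone. C1qa (0.51, adjusted p = 0.12), C1qb (0.31, 0.28), C1qc (0.51, 0.0938) and Cfb (-0.15, 0.177) did not pass in kidney. The summed macrophage markers there had 163, 270 and 485 CPM in aged controls and 244, 284 and 617 with exenatide, with 1 of 14 markers called higher, and the summed hepatocyte markers had 129, 141 and 212 against 129, 166 and 420. Their part in the result was not tested.

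**Figure D4:**
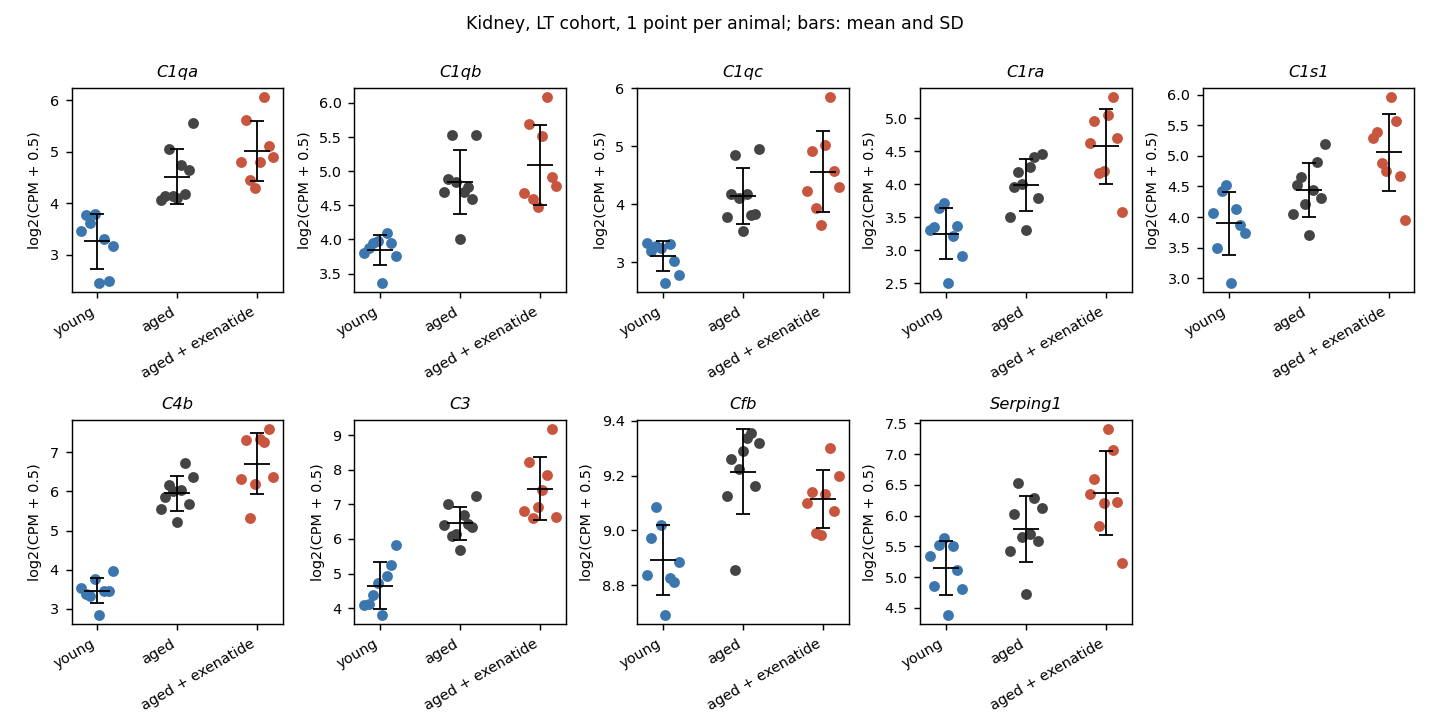
Level of the 9 members, as log2(CPM + 0.5), in each LT kidney library by group, with 1 point per animal and bars for the mean and SD. C4b runs from 6.68 to 15.2 CPM in young, 36.6 to 105 in aged control and 39.3 to 193 in exenatide-treated kidneys.

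In colon, C1qa and C1qc were lower with exenatide, and C1qb was not called. C1qa had 21.3, 44.7 and 63.3 CPM in aged controls and 13.8, 21.8 and 35.7 with exenatide (-0.93 ± 0.21, adjusted p = 0.00841). Young colons, A52 and A53 among them, had 15.1, 27.4 and 40.9. Between young and aged colons C1qa was not called by edgeR, while DESeq2's Wald test called it higher with age (0.64, adjusted p = 0.0422). C1qc had 28.4, 37.5 and 57.6 against 22.6, 26.8 and 31.5 CPM (-0.71 ± 0.15, adjusted p = 0.00689), and 7 of 8 treated colons lay below all aged controls. C1qb, with 36.8, 48.5 and 66.9 against 32, 39.2 and 61.4 CPM, was not called (-0.27, adjusted p = 0.218). Of all genes 6.98% fell in colon. Both calls held with any 1 animal left out. They had the same sign in both batch sets (C1qa -0.61 and -1.15, C1qc -0.71 and -0.71) but passed in neither set alone. In colon 1 of 14 macrophage markers was lower (summed level 554, 659 and 858 against 569, 627 and 866 CPM).

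In the ST cohort, which used other animals and was sequenced in 1 batch, age was again followed by higher complement transcripts, in fewer tissues. Of 61 tests 13 rose and 0 fell by edgeR, against 6.82% and 6.74% of all gene tests. DESeq2 called 15 and 0, and 21 and 0 had an unadjusted p under 0.05. The shares of all genes by DESeq2 and at that unadjusted threshold are not given here. All 9 members rose in heart, where 11.5% of all genes rose, 3 in hippocampus (11.9%) and C4b alone in frontal cortex (4.3%). C4b in heart had 25.3, 33.9, 33.1, 35.8 and 37.9 CPM in the young and 82.2, 201, 123, 192 and 40.9 in the aged animals E13, E23, E29, E30 and E32 (1.91 ± 0.39, adjusted p = 0.00374). The aged hearts lay above all the young ones, and animal E32 lay closest to them. E32 was the lowest of the aged hearts for each of the 9 members.

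The classical pathway proteases showed this most clearly. C1s1 had 56.5, 66.4, 55.5, 48.7 and 63.4 CPM in young and 148, 149, 150, 150 and 65.1 in aged hearts (1.15 ± 0.21, adjusted p = 0.0024), so that 4 aged hearts were nearly identical and E32 was among the young. C1ra had 25.6, 23.7, 19.4, 27.8 and 31 against 52.8, 58.2, 57.8, 52.8 and 24.3 CPM (0.91 ± 0.21, adjusted p = 0.00567). Their inhibitor Serping1 had 226, 215, 186, 212 and 252 against 394, 397, 584, 510 and 207 (0.90 ± 0.24, adjusted p = 0.0108), with E32 again inside the young range.

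C3 in ST heart had 186, 274, 265, 217 and 318 CPM in young and 487, 1146, 526, 917 and 224 in aged animals (1.36 ± 0.33, adjusted p = 0.00741). Cfb had 2.92, 2.22, 1.96, 2.73 and 3.61 against 7.1, 33, 6.97, 23.6 and 3.14 (2.44 ± 0.62, adjusted p = 0.00961). E23 and E30 held the highest values of both, and also of C4b. C1qb had 69.1, 77.8, 54.2, 74.5 and 82 against 155, 300, 153, 245 and 88.4 (1.37 ± 0.35, adjusted p = 0.00928), without overlap, and C1qa (1.22 ± 0.33, adjusted p = 0.0121) and C1qc (1.20 ± 0.30, adjusted p = 0.00884) rose with it. These 9 heart calls held with any 1 animal left out. Of 14 macrophage markers 13 rose in ST heart, with a summed level of 411, 517 and 569 CPM in young and 634, 1300 and 1937 in aged animals, and of 8 fibroblast markers 4 rose and 2 fell. Their part in the members' rises was not tested.

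In ST hippocampus the brain-expressed component C4b stood out. It had 72.7, 66, 81.1, 81.2 and 77.8 CPM in young and 499, 248, 195, 243 and 258 in aged animals (1.90 ± 0.26, or 3.74-fold, adjusted p = 6.03e-06), and every aged hippocampus lay above every young one. C3 had 3.9, 1.72, 3.14, 1.97 and 3.58 against 50.7, 8.79, 6.15, 7.76 and 9.6 CPM (2.54 ± 0.60, adjusted p = 0.00275), also without overlap. Animal E13 held the highest aged value of both genes, and without it the C3 change was smaller but still passed (1.51, adjusted p = 0.026). In frontal cortex C4b had 32.5, 26.8, 20.9, 31.1 and 29.6 CPM against 141, 81.3, 84.1, 74.7 and 66 (1.67 ± 0.22, adjusted p = 0.000173), and E13 was again the highest.

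Cfb in ST hippocampus passed narrowly at under 2 CPM, with 0.287, 0.275, 0.33, 0.417 and 0.5 CPM in young and 0.54, 0.768, 0.835, 1.94 and 0.232 in aged animals (1.22 ± 0.46, adjusted p = 0.0489), and kept its call in 12 of 30 fits that left out 1 animal (adjusted p up to 0.285). The C1q chains did not pass there (C1qa 0.07, C1qb 0.31 with adjusted p = 0.142, C1qc 0.06), while 10 of 14 macrophage and microglia markers rose, their summed level going from 343, 357 and 376 CPM in young to 452, 500 and 661 in aged animals. Of 6 astrocyte markers 2 rose, with summed levels of 1893, 1974 and 2234 CPM against 2140, 2256 and 2784. In ST adipose tissue the members' log2 fold changes lay between 0.46 and 1.72 but none passed (adjusted p from 0.543 to 0.947), with or without the library of animal E29, and 0% of all genes rose there.

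**Figure D5:**
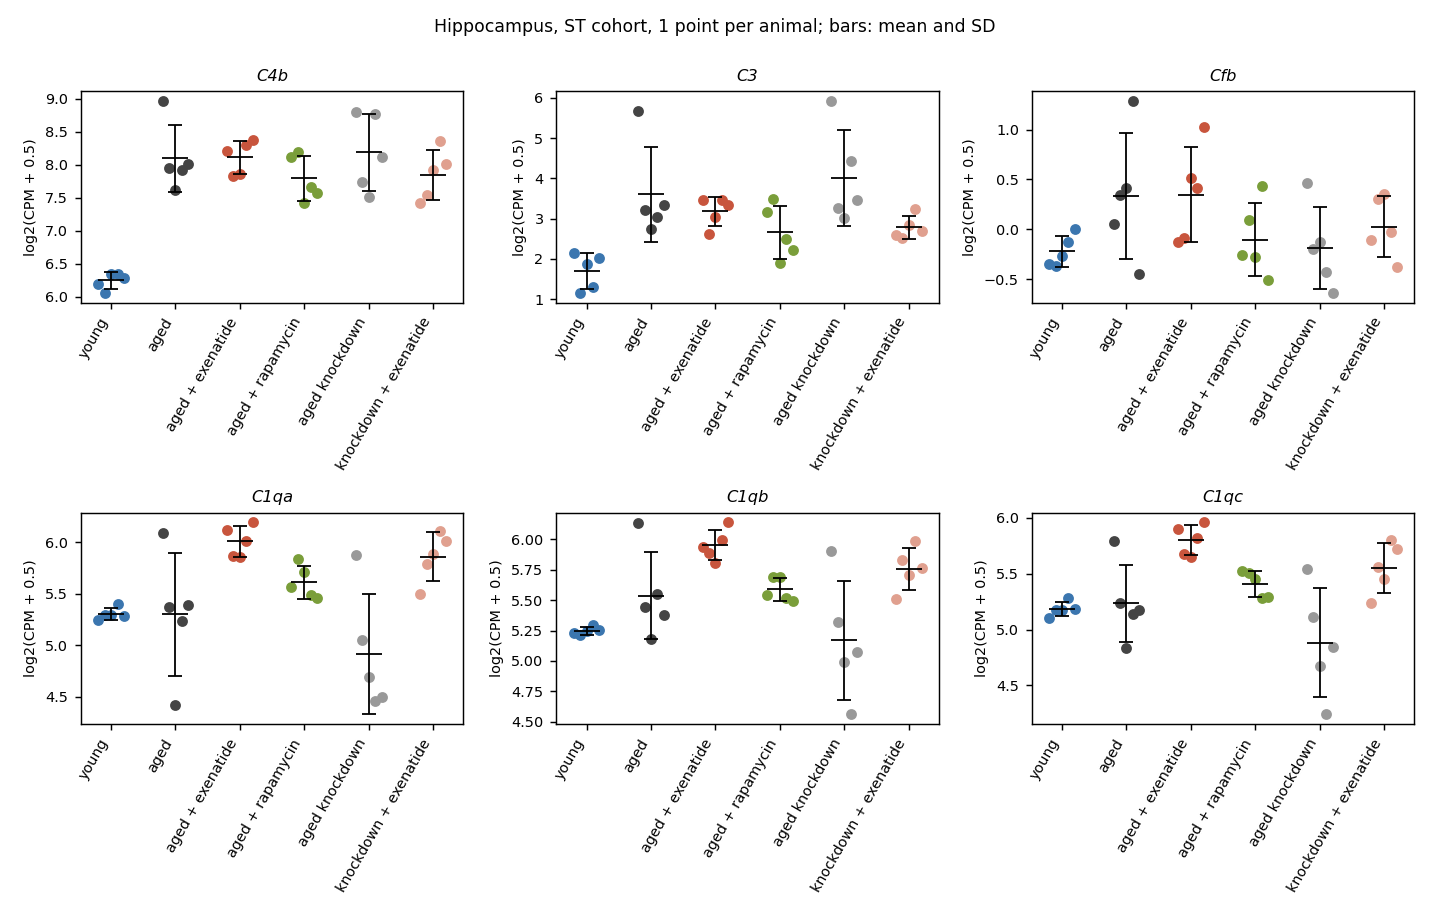
Level of C4b, C3, Cfb and the C1q chains, as log2(CPM + 0.5), in each ST hippocampus library for the 6 groups, with bars for the mean and SD. Young C4b values lie between 66 and 81.2 CPM and those of the 5 aged groups above them, and the highest C3 values are in animals E13 (50.7) and E20 (60).

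The 4 treated ST groups were compared with aged animals, and the exenatide, rapamycin and knockdown comparisons share the same 5 aged controls. In hippocampus, C1qa and C1qc were higher with exenatide in animals without the knockdown, and all 3 C1q chains were higher with it within the knockdown. C1qa had 67.9, 40.8, 20.9, 37.2 and 41.4 CPM in aged controls and 69, 58, 57.4, 64.1 and 72.8 with exenatide (0.60 ± 0.22, adjusted p = 0.044), and C1qc had 54.8, 37.2, 28, 34.7 and 35.6 against 59.1, 50.6, 49.8, 55.9 and 61.8 (0.51 ± 0.15, adjusted p = 0.0122). Animal E13 was inside the treated range and the other 4 controls were below it. These were the 2 rises of 61 tests, with 0 falls, a smaller share than the 4.08% and 3.92% of all gene tests over the tissues, and 14.2% of hippocampal genes rose. C1qb missed the threshold (0.35, adjusted p = 0.0793) and passed without E13 (0.54, adjusted p = 0.0046), without E20 (0.36, adjusted p = 0.0209) or without E8 (0.36, adjusted p = 0.0423). The C1qa call was kept in 22 of 30 fits that left out 1 animal (adjusted p up to 0.112), and the C1qc call in 30 of 30. C1qa was also not called in fits limited to the groups compared (adjusted p = 0.0924) or with no filter on low counts (0.0774).

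Within the knockdown, C1qa had 58.2, 32.6, 25.4, 21.4 and 22.1 CPM without and 44.8, 54.7, 58.6, 68.8 and 64.1 with exenatide (0.85 ± 0.22, adjusted p = 0.00452). C1qb (0.52 ± 0.15, adjusted p = 0.00989) and C1qc (0.62 ± 0.15, adjusted p = 0.00289) rose as well, and animal E20 was the highest of the untreated knockdown animals for all 3. C3 fell, from 60, 9.06, 7.63, 21.2 and 10.5 CPM to 5.56, 5.24, 6.68, 8.98 and 5.98 (-1.75 ± 0.56, adjusted p = 0.0189), and this call was lost without E20 (-0.96, adjusted p = 0.158). These 3 rises and 1 fall of 61 tests stand beside 2.55% and 2.39% of all gene tests, and beside 16.1% and 15.1% in hippocampus. C4b did not pass in either exenatide comparison (-0.07, adjusted p = 0.863, and -0.43, adjusted p = 0.202).

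Macrophage and microglia markers did not move as a block in these hippocampi. With exenatide 2 of 14 rose and 2 fell without the knockdown, and 3 rose and 2 fell within it. Their summed level had a median of 500 CPM in aged controls, 503 with exenatide, 496 with the knockdown and 494 with exenatide and the knockdown. The difference between the 2 exenatide effects, tested as an interaction, passed for no member in any tissue (edgeR, smallest adjusted p = 0.138, and 0 called by DESeq2). Of all gene tests, 1.17% were called higher and 1.24% lower. At an unadjusted p under 0.05 there were 7 of 61 member tests, 6 of them in heart, and the share of all genes at that threshold was not computed. In heart the members' interaction values lay between 0.45 and 1.71 on the log2 scale, where the median of all genes was 0.0108. None passed (adjusted p from 0.138 to 0.376). The members were read in the same hearts, so their shared sign is not a set of separate observations.

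Rapamycin and the knockdown alone gave no member call by edgeR. For rapamycin, 0 of 61 tests were called, against 6.72% of all gene tests called higher and 6.5% called lower. The smallest adjusted p was 0.0585, for C1qc in heart (-0.78). At an unadjusted p under 0.05 there were 3 tests, all lower, and the share of all genes at that threshold is not given here. DESeq2's Wald test called 3 falls, C1qc in heart (-0.77, adjusted p = 0.039), C3 in hippocampus (-1.38, adjusted p = 0.0359) and Cfb in white blood cells (-2.15, adjusted p = 0.0438). C3 in hippocampus had 8.54, 10.8, 3.21, 5.14 and 4.2 CPM with rapamycin, and edgeR gave -1.39 (adjusted p = 0.0665). Without the rapamycin animal E28, all 3 C1q chains passed as lower in heart (C1qa -1.03, C1qb -1.11, C1qc -1.01, adjusted p 0.0186 to 0.0221). C1qc also passed there without E32 (-0.96) or E34 (-0.78). In hippocampus C3 passed as lower without E20 (-1.39), E22 (-1.68) or E29 (-1.59), and Serping1 without E36 (-1.14).

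For the knockdown, 0 of 61 tests were called, against 1.89% of all gene tests called higher and 1.38% called lower. The smallest adjusted p was 0.0544. At an unadjusted p under 0.05 there were 13 tests, 2 higher and 11 lower, with 6 of the lower ones in heart. The share of all genes at that unadjusted threshold was not computed. DESeq2 called 1 rise, C1ra in frontal cortex (0.55, adjusted p = 0.0351), and 1 fall, C1ra in white blood cells (-1.80, adjusted p = 0.0383). Without animal E20 the C1q chains passed as lower in hippocampus (C1qa -0.66, C1qb -0.51, C1qc -0.47, adjusted p 0.0167 to 0.0412), without E8 C1ra passed as lower in white blood cells (-2.69, adjusted p = 0.018), and without E12, E15, E25 or E34, animals of other groups, C1ra passed as higher in frontal cortex (0.54 or 0.55).

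In YA animals exenatide gave no member call in 70 tests, against 0.275% of all gene tests higher and 0.356% lower. The smallest adjusted p was 0.163, for C3 in white blood cells (1.68), and DESeq2 called 0. At an unadjusted p under 0.05 there were 2 tests, and the share of all genes at that threshold is not given here. The groups overlapped in hippocampus, where C4b had 108, 146 and 167 CPM in controls and 111, 141 and 159 with exenatide. One treated hippocampus, of animal A88, held 6.04 CPM of C1qa, 8.24 of C1qb and 8.6 of C1qc, where the next lowest library held 39.4 of C1qa, and its microglial marker Tyrobp was at 0.5 CPM.

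The other complement genes, a list of 40, rose more often than they fell with age. In LT age 47 of 313 tests rose and 19 fell (median log2 fold change 0.036), against 7.01% and 6.56% of all gene tests, and in ST age 18 of 176 rose and 6 fell, against 6.82% and 6.74%. The share that fell was thus no larger than that over all genes. Complement receptors made up much of the rise, with 20 of 73 tests up and 1 down in LT and 10 of 43 up and 0 down in ST. Itgax, a subunit of complement receptor 4 on myeloid cells, rose in LT adipose tissue (1.83, adjusted p = 4.16e-05), hypothalamus (2.21, adjusted p = 0.0159), heart (1.46), frontal cortex (1.11) and kidney (0.82), fell in colon (-0.94, adjusted p = 0.0129), and rose in ST hippocampus (2.17, adjusted p = 0.00084), heart (1.61) and frontal cortex (1.61). C5ar1, the C5a receptor, rose in LT kidney (1.67, adjusted p = 0.000154), adipose tissue (1.26), white blood cells (1.09) and liver (0.83), and C3ar1 rose in ST heart (1.49) and hippocampus (0.97).

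C7, a terminal component that joins the membrane pore, rose in LT spleen (1.69, adjusted p = 0.000774), kidney (1.11), liver (1.01) and heart (0.48). Regulators were balanced, with 10 of 108 LT tests up and 12 down, and Cd46, a membrane regulator, rose in LT white blood cells (0.41) but fell in colon (-0.73), skeletal muscle (-0.70) and spleen (-0.66), and in ST skeletal muscle (-1.22, adjusted p = 0.000333) and white blood cells (-1.29). With exenatide 10 of 313 list tests rose and 12 fell in LT (2.63% and 2.29% of all gene tests), 2 of 176 rose and 2 fell in ST (4.08% and 3.92%), and 0 of 179 rose and 2 fell in YA (0.275% and 0.356%). With rapamycin 7 of 176 rose and 7 fell (6.72% and 6.5%), and with the knockdown edgeR called 0 of 176 (1.89% and 1.38%). In ST these shares were below those over all genes.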

How the data were processed

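Per the labels' protocols, RNA of mouse tissues kept in RNAlater was extracted (TRIzol or RNAqueous), poly(A) selected and made into NEBNext Ultra II libraries. GRCm39 and FastQC 0.11.9 are named in the submitters' processing notes, and the aligner, counter and annotation are not given in the sources used here. For LT the authors deposited whole-number counts per gene, and for ST and YA expected counts, of which 7.37% (ST) and 7.21% (YA) of non-zero values were not whole and were rounded here.

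Group, animal and tissue came from each title and batch from each description. The titles and descriptions of 2 LT exenatide livers name animals B13 and B14 the other way round, so these livers carry a group and no animal. In LT, liver was sequenced in batch 3, white blood cells in batch 1 and other tissues in batch 1 or 2 and batch 3. Each tissue was fitted separately in edgeR 4.0.16 (R 4.3.3, TMM, filterByExpr by group, robust quasi-likelihood fits over all groups of the cohort and tissue, batch as a covariate in LT), adjusted by the Benjamini-Hochberg method over all genes of a tissue and contrast. SE is the log2 fold change divided by the square root of F. The edgeR p-values set a difference between groups against the spread between animals. CPM is per library total, and fold changes are TMM-scaled. The permutation tests used numpy 2.4.6. Tissue order was tested on log2(CPM + 0.5), and tissue differences of the age effect on the same measure with TMM-scaled CPM. C1q against macrophage markers was tested on the log2 ratio of summed counts, with no value added. Levels per kilobase used the longest coding transcript of the gene annotation. No pair of libraries of a group agreed within sampling noise (smallest chi-square per gene 3.24). On simulated counts edgeR recovered 72% of genes changed 2-fold and 100% of those changed 4-fold in LT kidney age, 43% and 100% in ST hippocampus, and 74% and 98% in YA colon. The simulation gave every gene the same dispersion, with no batch effect and no outlying library. These shares check the procedure and are not the power for the members in these tissues.

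The members, the list of 40 other complement genes and the marker lists were chosen with earlier results of these data known. All members are named. The rule for other genes took the 3 with the highest correlation to each member over the LT means and up to 4 list genes called in most tissues per contrast. Alternatives were DESeq2 1.42.0 (Wald test) or its size factors, no filter on low counts, fits limited to the groups compared, batch sets alone, no batch term, C4a and C4b summed, other pseudocounts and each animal left out. Leaving out libraries over 1000 CPM of hepatocyte markers was added after the data were seen.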

Additional observations from a re-analysis of the deposited data

Results flagged for a closer look

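In each LT or ST group of 4 to 10 animals in which a member was called, the highest and lowest libraries were compared with the others by Dixon's ratio on log2(CPM + 0.5). Young LT hippocampus was added for all 9 members, although none was called there. Of 141 groups, 21 held a library far from the others, in 11 libraries, where chance flags about 1 in 20 groups.

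The LT young hippocampus of animal A53 stood far above the other young hippocampi for 6 members, with C3 at 1320 CPM, C4b at 309, Serping1 at 153, Cfb at 152, C1s1 at 47.4 and C1ra at 34.7, and it was also the library with 12296 CPM of hepatocyte markers. In LT aged hypothalamus, animal B19 was far above the others for C4b (269 CPM), C1qa (80), C1qb (67.5) and C1qc (56.5), and its kidney was far below them for Cfb (463). In LT aged controls, animal B15 was low in adipose tissue for C3 (3113 CPM) and Serping1 (751) and high in frontal cortex for C3 (3.33).

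In ST aged heart, animal E32 was far below the others for C1s1 (65.1 CPM) and C1ra (24.3), and in ST aged hippocampus E13 was far above them for C3 (50.7). Single young libraries also stood apart for C1qa in ST heart (A45, 60.5 CPM), C1qb in LT kidney (A55, 9.79), C1qc in LT skeletal muscle (A53, 2.56) and Cfb in LT hypothalamus (A58, 1.32).

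For each member, only the tissue with its largest called LT age effect was looked at here, white blood cells apart. In that tissue the age effect differed from that in the animal's other tissues for 7 members, by the exact permutation test given in the report. Over all tissues 33 of 99 such tests passed. On the log2 scale the excess was 1.59 for C4b and 1.032 for C3 in kidney, 1.407 for C1qb, 1.129 for C1qc, 1.063 for Serping1 and 0.595 for C1s1 in adipose tissue, and 1.122 for Cfb in heart.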

How the results depend on the processing

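The counts of LT and ST age rises stayed within 38 to 45 and 12 to 15 across the tools and filters tried, but not always with the same calls. In fits limited to the groups compared, LT age lost 5 rises (C4b, C1qc and C1ra in colon, C1ra in skeletal muscle and Cfb in white blood cells) and gained 7 (C1qb, C1qc, C1s1, C3 and Serping1 in spleen, and C1s1 and Serping1 in kidney). Batch 3 alone gave 9 rises and 0 falls with LT age (41 and 1 in the full fit), 0 rises and 1 fall with LT exenatide (5 and 2), and batches 1 and 2 alone gave 24 rises and 0 falls with age and 5 rises and 0 falls with exenatide; both sets held fewer animals. The exenatide rises of batches 1 and 2 included C1qa (0.54, adjusted p = 0.0218) and C4b (0.73, adjusted p = 0.0469) in frontal cortex and C1qb in hypothalamus (0.41, adjusted p = 0.0471). The fall in batch 3 was C1qa in frontal cortex (-0.80, adjusted p = 0.0408), so the sets called this gene in opposite directions, and the full fit did not call it. LT exenatide rises came to 2 in fits limited to the groups compared, 3 with no batch term and 3 with no filter on low counts. ST exenatide rises came to 1 instead of 2 in fits limited to the groups compared and with no filter. The knockdown gave 1 rise and 1 fall by DESeq2 and 2 rises in fits limited to the groups compared, and rapamycin gave 3 falls by DESeq2, each instead of 0. Of the tissue order pairs 41 passed in aged controls instead of 22. Aged controls had 9 animals in colon and in skeletal muscle, against 6 young, so pairs with these tissues could pass only there. The 2 counts therefore do not compare levels alone. C1q against macrophage markers passed in 6 tissues without Lyz2 and Ctss instead of 3, and in 2 without the libraries over 1000 CPM of hepatocyte markers. The cause was not tested. C1s1 in LT kidney with exenatide turned to -0.04 in batch 3 alone.

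With each animal left out in turn, LT age gave 33 to 42 rises and 0 to 1 falls, LT exenatide 1 to 5 rises and 2 to 3 falls, ST age 12 to 15 rises, ST exenatide 1 to 3 rises, exenatide within the knockdown 3 to 4 rises and 0 to 1 falls, the knockdown 0 to 1 rises and 0 to 3 falls, and rapamycin 0 to 3 falls. LT exenatide rises were fewest without treated animal B14 (1). No paired analysis was possible between conditions because each animal belonged to 1 condition. Depth limits Cfb and C3 in brain and C1s1 and Serping1 in white blood cells, where counts were lowest.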
